A study of Mus musculus with 41 samples.

Results

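The genes described here were 38 genes of collagens, other extracellular matrix proteins and proteins of the stromal cells that make them, chosen by name. They comprised 12 collagen chains, Col1a1, Col1a2, Col3a1, Col4a1, Col4a2, Col5a1, Col5a2, Col6a1, Col6a2, Col6a3, Col12a1 and Col18a1, and 26 other genes. Those were Fn1, Fbn1, Fbln1, Fbln2, Fbln5, Lum, Dcn, Bgn, Sparc, Postn, Tnc, Thbs1, Thbs2, Lox, Loxl1, Loxl2, Eln, Mmp2, Timp1, Timp2, Timp3, Nid1, Lamb1, Lamc1, Vim and Acta2. All 38 were found by symbol among the 55536 genes of both count tables. The list was set by name rather than by a cut-off on measured values, and earlier results of these data were known when it was chosen.

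The extracellular matrix is the protein scaffold that cells secrete around themselves. Fibrillar collagens give it tensile strength, elastin and fibrillin give it recoil, and laminins, nidogen and collagen IV form the thin basement membrane on which epithelia and the seminiferous tubule rest. In the testis these genes are known as products of fibroblasts, peritubular myoid cells, Sertoli cells and vessels rather than of germ cells, so their RNA in a germ cell preparation is commonly read as a trace of other cells.

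The study compared cells with and without RHOX10, a homeobox transcription factor of the germ line, in C57BL/6 mice. RNA-seq was made from testis cells that had been sorted for green fluorescence after a cross to an Oct4-eGFP reporter strain, giving 4 wild-type libraries and 4 whose label is Rhox10-null, each from the pooled testes of 3 animals. The labels used here did not give the age of these mice. iSLAM-seq was made from cultured germline stem (GS) cells derived from newborn testes at P0 to P1. In all of these cultures endogenous Rhox10 had been knocked down by an shRNA lentivirus and the cells had been sorted by GFP. The cells then carried either a Rhox10-ERT2-mCherry fusion, which 4-hydroxytamoxifen activates (the Rhox10 vector), or the ERT2-mCherry empty vector (the Ctrl vector). Each vector had 2 libraries at each of 6 times from 0 to 8 h, 24 libraries in all. The labels mention no feeder cells for these cultures.

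Total counts were 6602089 to 8278887 in the 8 RNA-seq libraries and 9419615 to 12645845 in the 24 iSLAM-seq libraries, of which 10536 to 21220 and 76622 to 156205 fell on the 38 genes. In RNA-seq a single gene, Gm42418, held 58.0% to 59.4% of the counts of wild-type libraries and 51.0% to 52.7% of those labelled null. Rhox10 itself, with 3 to 10 wild-type counts against 4 to 11 in libraries labelled null, is the targeted gene, and its counts did not separate the genotypes. In iSLAM-seq it had 2 to 27 counts with the Ctrl vector and 353 to 540 with the Rhox10 vector, the libraries of 0 h included. Within the sorted cells, 14 germ cell markers summed to 315 to 321 CPM (counts scaled to a common library size) in the wild-type libraries while 11 Sertoli cell markers, among them Amh, summed to 655 to 702, so the Sertoli cell markers stood above the germ cell markers in what is labelled as purified germ cells. The 5 other somatic lists stood below them. The lists hold different genes at different levels, so their sums do not rank the cell types by number. The pair of Ctrl libraries at 0.5 h stood apart. Their counts differed with a chi-square of 26.6 per degree of freedom, against 2.61 to 4.57 for the other iSLAM-seq pairs and 1.22 to 4.49 for pairs of RNA-seq replicates. Labelled-null RNA-seq pairs with replicate 4 were at 4.02 to 4.49 and the others at 1.37 to 1.54. Wild-type pairs with replicate 4 were at 1.72 to 2.71 and the others at 1.22 to 1.63. The second Ctrl library of 0.5 h lay outside the other 11 Ctrl libraries at 21 of the 38 genes, below them at 10 and above them at 11. The first Ctrl library of 0.5 h did so at 11 genes, 2 below and 9 above. That is nearer to other Ctrl libraries, such as the first of 8 h, with 7 below and 2 above, and the second of 0 h, with 5 and 3. These counts of outlying genes are given without the share of all genes. Counts of matrix genes that rest on the 0.5 h libraries are given with and without them. Apart from the pooling of animals in RNA-seq and the labels' word that the iSLAM-seq replicates were biological, nothing ties a library to a separate litter or culture, and the p-values measure the spread between these libraries only.

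RHOX10 binding was mapped in GS cells by CUT&Tag, which tags DNA where an antibody against a protein sits, and the authors deposited 5147 merged peaks. Among the 38 genes, 9 had 10 peaks assigned to them. A peak lay within 3 kb of the transcription start of 7 genes, or 18.4%, against 27.3% of the genes tested in RNA-seq and 19.8% of those tested in iSLAM-seq. By the authors' peak score, whose unit the file does not give, the strongest was at Lamc1, the laminin γ1 chain of basement membranes, with 610.9. Fn1, which encodes fibronectin, followed with 305.3, and the median of all peaks was 127.5. Vim, Col5a1, Lox and Col12a1 had peaks of 126.1, 123.7, 69.9 and 41.5 at up to 0.405 kb from their starts, and Col1a1 had an intronic peak of 55.4 at 1.41 kb from its start. The other peaks were distal, at Eln, Mmp2 and a second site of Col1a1, with scores of 64.3, 33.9 and 37.1.

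The DNA under 2 of these peaks is shown because the genes differ in their later behaviour: Fn1 was higher with the Rhox10 vector and in labelled-null libraries, and Col5a1 moved in opposite directions in the 2 assays. TAAT is the core that homeodomain proteins are known to recognise, and CCAAT is a common promoter element. Each stretch lies within the peak, outside annotated exons and upstream of the gene. The strand of the gene is shown 5′ to 3′, as read from the RefSeq GRCm38 genome. Capitals mark TAAT and CCAAT, or ATTA and ATTGG on the other strand.
Fn1, chr1:71653387-71653545, minus strand, 226 bases from an annotated transcript start: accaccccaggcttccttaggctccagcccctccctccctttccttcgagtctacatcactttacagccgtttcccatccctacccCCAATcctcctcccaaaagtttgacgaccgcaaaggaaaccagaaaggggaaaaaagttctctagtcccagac
Col5a1, chr2:27886175-27886424, plus strand, 1 base from the start: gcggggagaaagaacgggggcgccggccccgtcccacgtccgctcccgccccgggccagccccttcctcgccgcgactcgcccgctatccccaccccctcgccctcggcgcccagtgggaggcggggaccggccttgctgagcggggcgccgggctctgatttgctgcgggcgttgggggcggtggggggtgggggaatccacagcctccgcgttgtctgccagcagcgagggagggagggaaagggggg
The stretches differed in composition. Bases G and C made up 76.4% of the Col5a1 stretch and 53.5% of the Fn1 stretch. CCAAT occurred in the Fn1 stretch, and neither motif occurred in that of Col5a1. In windows of 300 bases around the peak centres, searched on both strands, 2 of the 10 peaks of the matrix genes held TAAT and 2 held CCAAT. TAAT was in the windows of Col12a1 and Mmp2 and CCAAT in those of Vim and Mmp2. The windows of Fn1 and Col5a1 held neither, and the Fn1 stretch above lies outside its window. Among the windows of 5143 peaks 26.9% held TAAT and 33.9% held CCAAT.

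The first comparison asked how matrix transcripts in Oct4-eGFP-sorted testis cells differ between the genotype labels. Most of the 38 genes were higher in the libraries labelled null. Of the 36 that passed the filter on low counts, 27 (75.0%) were higher, against 18.6% of all 13538 genes tested, and 2 (5.56%), Sparc and Fbln1, were lower, against 18.9%. The median log2 fold change was 0.42, against 0.00 over all genes, and 32 of 36 values were positive. Lum and Tnc did not pass the filter. With this scaling none of the changes reached 2-fold, and the highest was 1.91-fold, for Eln. The summed level of the 38 genes was 1800 ± 35.7 CPM in wild-type libraries and 2343 ± 31.8 CPM in those labelled null (mean ± SD, n = 4 each), a ratio of 1.30. In these bulk libraries more stromal cells and more matrix RNA per cell cannot be told apart.

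All 5 fibrillar collagen chains rose, by 0.46 to 0.79 on the log2 scale. Col1a1, the α1 chain of type I collagen, was at 132, 140.2, 133 and 141 CPM in the 4 wild-type libraries and at 193, 202, 208 and 192 CPM in the 4 labelled null. Its log2 fold change was 0.54 ± 0.046 (SE, adjusted p = 6.34e-13), and the genotypes did not overlap. The partner chain of the same triple helix, Col1a2, was at 123, 131, 122 and 134 CPM and at 214, 215, 231 and 219.6 CPM, a log2 fold change of 0.79 ± 0.047 (SE, adjusted p = 6.13e-18). Every library labelled null again lay above every wild-type library. Col3a1, which forms the thinner fibrils of soft organs, was at 109, 112, 111 and 105 CPM in wild-type and 169, 173, 169 and 166 CPM in labelled-null libraries (log2 fold change 0.63 ± 0.046, SE, adjusted p = 4.78e-15). Type V collagen sits in the core of type I fibrils and sets their width. Col5a1 was at 46.8, 41.7, 45.9 and 49.7 CPM against 66.7, 57.2, 66.1 and 63.8 CPM (0.46 ± 0.06, SE, adjusted p = 3.36e-08), and Col5a2 was at 18.05, 17.5, 16.8 and 18.5 CPM against 28.7, 26.9, 28.7 and 27.99 CPM (0.66 ± 0.075, SE, adjusted p = 1.62e-09). Neither chain showed an overlap between genotypes. Among all genes tested, 15.8% had every labelled-null library above every wild-type library, and among the 36 matrix genes 25 (69.4%) did.

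**Figure D1:**
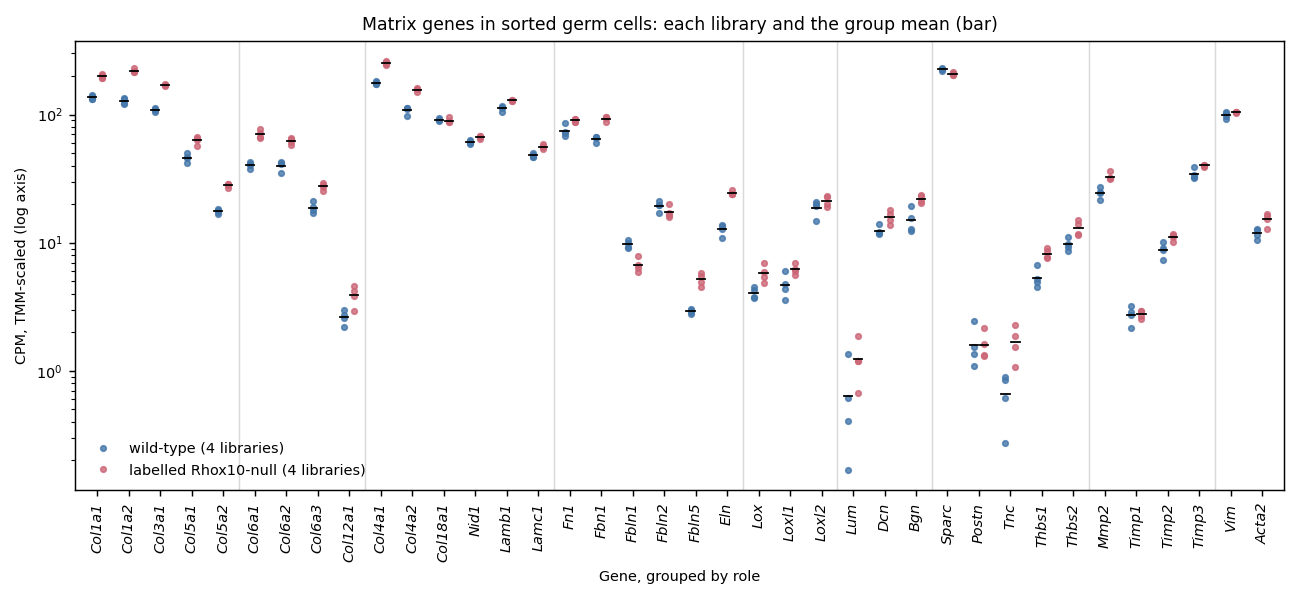
Level of each matrix gene in RNA-seq, in CPM on a log axis, with 1 point per library, wild-type in blue and labelled Rhox10-null in red, and a bar at each group's mean. The genes are grouped by role, and the red points lie above the blue for 25 of the 36 genes tested.

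All 3 chains of collagen VI, which forms beaded filaments, were higher. Col6a1 was at 40.2, 37.9, 41.4 and 42.6 CPM in wild-type and 66.2, 67.01, 76.5 and 72.3 CPM in labelled-null libraries (log2 fold change 0.80 ± 0.059, SE, adjusted p = 1.02e-14). Col6a2 was at 34.9, 41.7, 42.4 and 40.8 CPM and 58.1, 60.8, 65.4 and 64.7 CPM (0.64 ± 0.061, SE, adjusted p = 1.62e-11), and Col6a3 was at 16.996, 21.2, 17.97 and 18.9 CPM and 28.2, 25.2, 29.2 and 27.3 CPM (0.55 ± 0.079, SE, adjusted p = 2.95e-07). None of the chains of this heterotrimer overlapped between genotypes. Col12a1, a collagen that decorates the surface of fibrils, rose by 0.55 (log2), from a low level per length, 0.173 RPKM (counts scaled to library size and to gene length in kb). Its adjusted p of 0.0355 became 0.0566 to 0.147 in 8 of the alternative fits, where its call was lost: DESeq2, no filter, and without labelled-null replicate 1, 3 or 4 or wild-type replicate 2, 3 or 4.

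Among the 6 basement membrane genes, 4 rose and 2 were not called. Col4a1 and Col4a2 encode the chains of the collagen IV network and lie head to head on chromosome 8 of GRCm38. Their annotated starts, at 11312826 on the minus strand and 11312805 on the plus strand, overlap by 22 bases. Col4a1 was at 180.2, 182, 174 and 174 CPM in wild-type and 249, 245, 261 and 256 CPM in labelled-null libraries (log2 fold change 0.51 ± 0.044, SE, adjusted p = 1.05e-12). Col4a2 was at 97.3, 112, 111 and 112 CPM and 159, 159, 149 and 159.7 CPM (0.54 ± 0.049, SE, adjusted p = 4.75e-12). The pair differed by nearly the same factor, 1.42-fold and 1.45-fold, with no overlap between genotypes for either gene. The laminin chains Lamb1 and Lamc1 rose less, by 0.21 and 0.23 on the log2 scale. Nid1, the nidogen that links laminin to collagen IV, and Col18a1, a basement membrane collagen, had log2 fold changes of 0.12 and -0.03 and were not called.

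Fibronectin and the elastic fibre genes did not move together. Eln, which encodes elastin, was at 10.8, 13.5, 12.9 and 13.7 CPM in wild-type and 25.6, 23.97, 23.9 and 23.95 CPM in labelled-null libraries. Its log2 fold change of 0.94 ± 0.087 (SE, adjusted p = 9.65e-12) was the highest of the 36 genes. Fbn1, the fibrillin scaffold of elastic fibres, was at 59.9, 66.9, 65.1 and 67.2 CPM and 93.7, 94.96, 95.5 and 88.1 CPM (0.52 ± 0.052, SE, adjusted p = 5.01e-11). Neither gene overlapped between genotypes. Fbln5, which helps assemble elastin, rose by 0.82 and Fn1 by 0.27 (log2). Fbln1, a fibulin that binds fibronectin and laminin, was at 9.33, 9.05, 10.002 and 10.4 CPM in wild-type and 6.33, 6.75, 5.89 and 7.94 CPM in labelled-null libraries, a log2 fold change of -0.54 ± 0.13 (SE, adjusted p = 0.000883). It was the one fibulin called lower. With counts scaled to library totals it was at -0.19 (adjusted p = 0.207), and scaled to the germ cell genes it was at 0.41. Fbln2 was at -0.15 and was not called.

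The remaining roles were mixed. Mmp2, a gelatinase that cleaves collagen IV and denatured collagen, was at 24.4, 27.2, 24.8 and 21.4 CPM in wild-type and 31.1, 31.8, 32.1 and 36.3 CPM in labelled-null libraries (log2 fold change 0.43 ± 0.073, SE, adjusted p = 8.59e-06). Bgn, the small leucine-rich proteoglycan biglycan, was at 12.3, 15.5, 12.7 and 19.3 CPM and 23.4, 23.04, 21.1 and 20.5 CPM (0.54 ± 0.098, SE, adjusted p = 2.07e-05). Neither overlapped, though the wild-type libraries of Bgn spread over a wide range for their level. Dcn, the related collagen-binding proteoglycan decorin, rose by 0.37. The collagen cross-linking oxidases Lox and Loxl1 rose by 0.51 and 0.40, while Loxl2 was at 0.17 and was not called. The call of Lox was lost with DESeq2 and without labelled-null replicate 4 or wild-type replicate 2 or 4 (adjusted p of 0.0506 to 0.0908), and that of Loxl1 in 9 alternatives, among them each replicate left out except labelled-null 2 and wild-type 4 (0.0518 to 0.188). Of the inhibitors of metalloproteinases, Timp2 and Timp3 rose by 0.32 and 0.23, while Timp1 was at 0.02 and was not called. Timp2 lost its call with DESeq2, with no filter and without labelled-null replicate 2 or 3 or wild-type replicate 1 or 3 (adjusted p of 0.05002 to 0.135). The adhesion-modulating thrombospondins Thbs1 and Thbs2 rose by 0.60 and 0.42. Postn, periostin, was at 0.01. Of the cytoskeletal genes, Acta2, the smooth muscle actin of myoid cells, rose by 0.36, and Vim, the intermediate filament of mesenchymal and Sertoli cells, was at 0.07 without a call.

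Sparc, a collagen-binding matricellular protein, was the most abundant of the 38 per length and did not rise. Vim and Col18a1, also abundant per length, were not called. It was at 225, 227, 220.4 and 229.6 CPM in wild-type and 204, 209.6, 216 and 205 CPM in labelled-null libraries, a log2 fold change of -0.11 ± 0.043 (SE, adjusted p = 0.0386) that became 0.24 with library totals and 0.84 with scaling to germ cell genes. Its call was also lost with no filter and without labelled-null replicate 1, 2 or 4 or wild-type replicate 2 or 4 (adjusted p of 0.0561 to 0.102). In RPKM, Sparc stood at 59.5 ± 1.03 in wild-type libraries (mean ± SD, n = 4). Col4a1 came next with 23.8 ± 0.578, then Vim with 21.02 ± 1.25 and Col1a1 with 20.8 ± 0.758, the latter pair closer than their spread. Tnc was lowest at 0.0848 RPKM. In the labelled-null libraries Col1a1, at 30.3 ± 1.14 RPKM, stood above Vim at 22.00 ± 0.279 and below Col4a1 at 33.9 ± 0.955.

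The scaling set the balance of calls over the whole table. With library totals in place of the TMM factors, 32 of the 36 genes were called, all higher, while 7229 genes of the whole table were called higher and 629 lower, and the median over the whole table moved to 0.35 and that of the matrix genes from 0.42 to 0.77. Scaled to the germ cell markers, which were themselves lower in labelled-null libraries, all 36 were called higher. So were 12483 of the 13538 genes tested, with 61 lower, and these medians were 0.95 and 1.37.

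Marker genes of other cell types moved beside the matrix genes in the same libraries. For the counts that follow, 18.6% of all genes were higher and 18.9% lower. All 5 called of 9 tested fibroblast markers were higher in labelled-null libraries. The largest were Pdgfra at 0.86 and Cd248 at 0.85 (log2), followed by Nr2f2 at 0.65, Pdgfrb at 0.43 and Gsn at 0.37. The 14 fibroblast markers summed to 88.3 to 95.0 CPM in wild-type and 145 to 148 CPM in labelled-null libraries, with S100a4 and Mfap5 near 0 in both. Peritubular myoid and pericyte markers showed 7 higher and 1 lower of 9 tested, with Cspg4 at 0.87, Des at 0.78, Notch3 at 0.67 and Mcam at -0.80, and their 11 genes summed to 136 to 150.3 and 141 to 158 CPM. Leydig cell markers showed 5 higher of 6, with Cyp11a1 at 0.82, Hsd3b1 at 0.55, Cyp17a1 at 0.43, Star at 0.34 and Hsd17b3 at 0.25 (sums of 71.9 to 76.1 and 93.1 to 103 CPM). Endothelial markers showed 4 higher of 6, with Tie1 at 0.94, Tek at 0.77, Cdh5 at 0.58 and Pecam1 at 0.39 (29.8 to 34.4 and 43.3 to 46.6 CPM). Macrophage markers showed 3 higher of 8, with C1qa at 0.60, Cd68 at 0.55 and Cx3cr1 at 0.51 (22.7 to 27.7 and 31.2 to 34.8 CPM). Sertoli cell markers were split, with 2 higher and 3 lower of 11: Aard at -0.86, Cldn11 at -0.73, Amh at 0.43, Cst9 at -0.25 and Inha at 0.12 (655 to 702 and 687 to 710.2 CPM). Germ cell markers fell in 11 of 12 cases, with Zbtb16 at -1.66, Gfra1 at -1.57, Dazl at -1.08 and Dnd1 at -1.04. Their 14 genes summed to 315 to 321 CPM in wild-type and 160.4 to 169 CPM in labelled-null libraries, and Dppa3 was at 0 in every wild-type library. The part of these cell types in the rise of the matrix genes was not tested.

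Genes that act on or through collagen were called in part, where 18.6% of all genes were higher and 18.9% lower. Of 17 collagen biosynthesis genes, 7 were higher and 0 lower in labelled-null libraries. Those with the largest differences were P3h3, a prolyl 3-hydroxylase, at 1.00, P4ha3, a prolyl 4-hydroxylase subunit, at 0.81, Pcolce, an enhancer of procollagen cleavage, at 0.56 and Adamts2, a procollagen N-proteinase, at 0.41. Of 17 matrix receptors tested, 6 were higher and 3 lower. Itga2 and the collagen receptor kinase Ddr2 were at 0.85 and 0.83, Itga5, the fibronectin receptor subunit, at 0.71 and the hyaluronan receptor Cd44 at 0.69. The lower ones were Sdc4 at -0.69, Itgb3 at -0.46 and Itgb5 at -0.18. Of 11 TGF-β pathway genes, a pathway known to drive collagen transcription, 4 were higher and 1 lower, with Tgfb2 at 0.84, Tgfbr2 at 0.47, Skil at 0.39 and Ccn2 at 0.31, and Ltbp1 at -0.27.

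The second comparison set the Rhox10 vector against the empty vector in GS cells before 4-hydroxytamoxifen, at 0 h. Matrix genes already differed there. Of the 38 genes, all of which passed the filter, 24 (63.2%) were higher with the Rhox10 vector, against 6.56% of the 20642 genes tested, and 2 (5.26%), Col5a1 and Acta2, were lower, against 4.32%. The median log2 difference was 0.50 (0.00 over all genes). Mmp2 and Thbs2 differed most, at 1.52 ± 0.092 (SE, adjusted p = 1.58e-10) and 1.20 ± 0.1 (SE, adjusted p = 2.55e-08) on the log2 scale. At 0 h the 38 genes summed to 8335 and 8376 CPM with the Ctrl vector and to 12479 and 12526 CPM with the Rhox10 vector. The protocol's read ends at the 3′ end of transcripts, so these CPM are not comparable between genes.

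Averaged over 0.5, 1, 2, 4 and 8 h, 30 of 38 (78.9%) were higher with the Rhox10 vector, against 18.7% of all genes, and the same 2, Col5a1 and Acta2, were lower (5.26%, against 18.4%). The median difference was 0.46. All 26 genes called at 0 h were called in the same direction in this average. At 8 h the counts were lower, 16 higher (42.1%, against 8.06% of all genes) and 2 lower (against 8.79%), with a median of 0.22. Without the 4 libraries of 0.5 h, a setting chosen after seeing the data, the counts were 28 higher and 2 lower at 0 h (all genes: 10.1% and 8.4%), 32 and 2 in the average (20.3% and 19.1%), and 22 and 2 at 8 h (12.1% and 12.3%). In 11 of 38 genes (28.9%) all 10 Rhox10 libraries of 0.5 to 8 h lay above all 10 Ctrl libraries, against 3.37% of all genes tested.

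**Figure D2:**
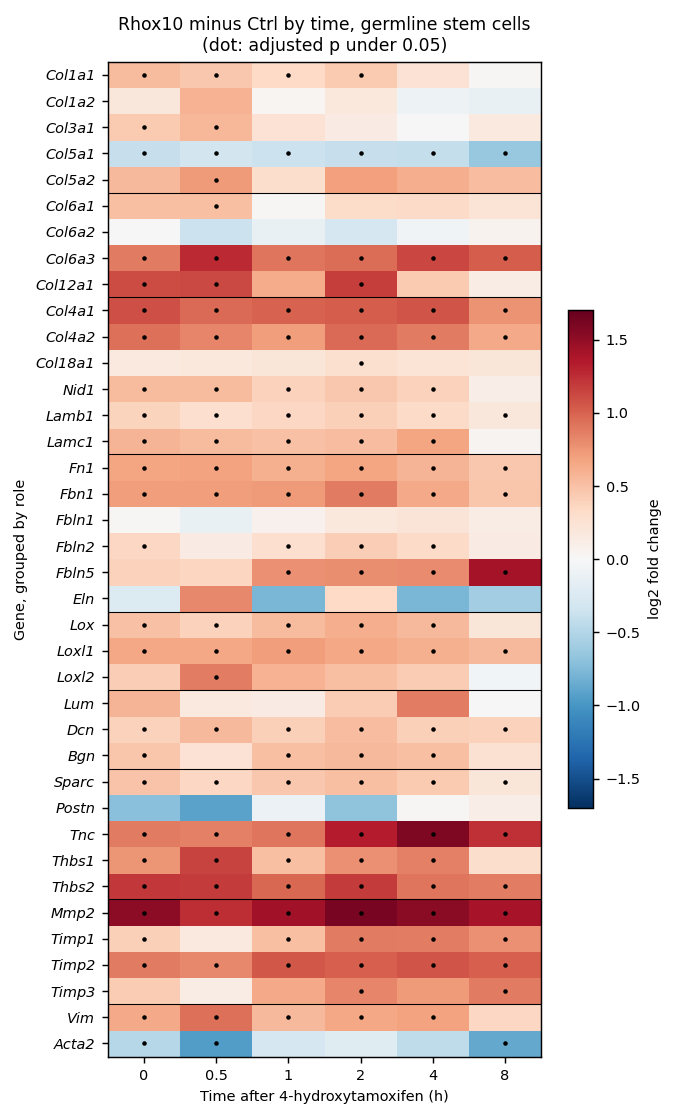
Log2 fold difference of the Rhox10 vector minus the Ctrl vector for each of the 38 matrix genes at the 6 times from 0 to 8 h, with 2 libraries per vector and time. A dot marks an adjusted p under 0.05. Positive values predominate at 0 h and at the later times, and Col5a1 and Acta2 are negative throughout.

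All 4 genes of proteases and their inhibitors were higher. Mmp2 had its lowest, median and highest values at 125, 133 and 192 CPM over the 12 Ctrl libraries and at 329, 383 and 452 CPM over the 12 Rhox10 libraries. Its averaged log2 difference was 1.45 ± 0.041 (SE, adjusted p = 1.03e-17), the highest of the 38, and the vectors did not overlap at any time. Timp2, an inhibitor that also takes part in activating this protease, was at 1023, 1172 and 1674 CPM (lowest, median, highest) with Ctrl and 2030.2, 2312 and 2549 CPM with Rhox10, a difference of 0.99 ± 0.039 (SE, adjusted p = 4.28e-15). Timp1, a secreted inhibitor of broad range, was at 357, 402 and 475 CPM and 482, 624 and 759 CPM (0.64 ± 0.033, SE, adjusted p = 3.32e-13). Both inhibitors separated the vectors in every library, Timp1 by a small margin. Timp3, the inhibitor bound to matrix, was higher by 0.64.

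All 6 basement membrane genes were higher in the average. Col4a1 was at 81.7, 93.3 and 120.2 CPM (lowest, median, highest) in the Ctrl libraries and 169, 188 and 218 CPM in the Rhox10 libraries, a log2 difference of 0.97 ± 0.041 (SE, adjusted p = 1.04e-14). Col4a2 was at 38.2, 43.1 and 49.4 CPM and 69.7, 77.3 and 82.9 CPM (0.81 ± 0.052, SE, adjusted p = 2.32e-11). As in RNA-seq the head-to-head pair moved together, here with no overlap between the vectors at either gene. Lamc1, the gene with the strongest peak, was higher by 0.46, Nid1 by 0.38, Lamb1 by 0.31 and Col18a1 by 0.22.

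Matricellular genes were higher in 4 of 5 cases. Tnc, tenascin C, a large glycoprotein of developing and healing tissue, was at 78.2, 117 and 145 CPM (lowest, median, highest) with the Ctrl vector and 142, 258 and 397 CPM with the Rhox10 vector. Its averaged difference was 1.18 ± 0.032 (SE, adjusted p = 5.78e-18), with the lowest p of the 38, although the highest Ctrl library, at 8 h, lay above the lowest Rhox10 library, at 0.5 h. Thbs2 was at 43.1, 49.1 and 57.6 CPM and 77.3, 104 and 119.5 CPM (1.03 ± 0.046, SE, adjusted p = 2.80e-14), with no overlap. Sparc, which had been lower in labelled-null RNA-seq libraries, was at 508, 549 and 725 CPM and 613, 772 and 836 CPM (0.39 ± 0.032, SE, adjusted p = 8.50e-10). Its highest Ctrl library, the second of 0.5 h, lay within the Rhox10 range. Thbs1 was higher by 0.72, and Postn was at -0.31 without a call.

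Fn1, whose promoter stretch is printed above, was at 581, 646 and 711 CPM (lowest, median, highest) in Ctrl and 790.1, 1007 and 1073 CPM in Rhox10 libraries, a log2 difference of 0.60 ± 0.032 (SE, adjusted p = 8.80e-13) with no overlap. Fbn1 was at 71.1, 87.1 and 103 CPM and 91.1, 152 and 163 CPM (0.69 ± 0.042, SE, adjusted p = 7.31e-12). The vectors overlapped for Fbn1 across times, and its level fell with time in both. Fbln5 was higher by 0.83 and Fbln2 by 0.27. Fbln1 and Eln were at 0.09 and -0.20 and were not called. Among the cross-linking enzymes, Lox was at 114, 128 and 149 CPM and 126, 189 and 204 CPM (0.46 ± 0.034, SE, adjusted p = 2.18e-10), with overlap between late Rhox10 and early Ctrl libraries. Loxl1 and Loxl2 were higher by 0.64 and 0.47. Of the proteoglycans, Dcn was at 189, 222 and 240.0 CPM and 279.5, 304 and 317 CPM (0.46 ± 0.035, SE, adjusted p = 4.70e-10), without overlap. Bgn was higher by 0.42, and Lum, lumican, was at 0.32 without a call. Vim was higher by 0.64.

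The fibrillar collagens did not share a direction. Col5a1 was at 319, 340.4 and 386 CPM (lowest, median, highest) in Ctrl libraries and 226, 259 and 289.7 CPM in Rhox10 libraries, a log2 difference of -0.43 ± 0.029 (SE, adjusted p = 6.64e-11). Every Rhox10 library lay below every Ctrl library, while its partner chain Col5a2 was higher by 0.57. Col1a1 and Col3a1 were higher by 0.30 and 0.22. Col1a2 was at 0.12 (adjusted p = 0.489). The second Ctrl library of 0.5 h held 139 CPM of Col1a2 where the other 11 held 312 to 513. The difference was 0.36 (adjusted p = 1.42e-19) without the first Ctrl library of 0.5 h and -0.01 (adjusted p = 0.81) without the second. Col6a3 was at 86.3, 182 and 197 CPM and 311, 341 and 426 CPM (1.06 ± 0.08, SE, adjusted p = 2.98e-10). The vectors did not overlap, and the lowest Ctrl value was again that second library. Col6a1 and Col12a1 were higher by 0.28 and 0.70, and Col6a2 was at -0.15 without a call. Calls were gained when a library was left out: Col6a2 at -0.19 (adjusted p = 0.016) and Lum at 0.34 (0.0353) without the first Ctrl library of 0.5 h, and Fbln1 at 0.13 (0.0247) without the second. The total was 33 without Ctrl replicate 1 of 4 h or without Rhox10 replicate 2 of 0.5 h or 2 h. The other gene that was lower, Acta2, was at 22.7, 30.96 and 48.2 CPM in Ctrl and 13.7, 22.4 and 30.03 CPM in Rhox10 libraries (-0.55 ± 0.066, SE, adjusted p = 4.31e-07), overlapping across times.

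The third comparison asked whether the difference between vectors moved after induction. For 2 of 38 genes (5.26%), against 2.39% of all genes, the F-test of change from 0 h passed the threshold. Both were genes whose difference widened. For Tnc the pairs of Ctrl libraries (replicate 1 / replicate 2) were at 82.4 / 78.2, 81.4 / 83.2, 109 / 108, 126 / 125, 127 / 132 and 145 / 137 CPM at 0, 0.5, 1, 2, 4 and 8 h, and the Rhox10 pairs were at 152 / 143, 156 / 142, 203 / 206, 323 / 311, 397 / 378 and 339 / 324 CPM. Tnc rose with time under both vectors and more under Rhox10, so that the log2 difference went from 0.88 at 0 h to 1.58 at 4 h and 1.24 at 8 h (adjusted p of the change = 9.95e-05). Timp1 pairs were at 377 / 407, 388 / 475, 377 / 397, 385 / 357, 416 / 414 and 423 / 445 CPM with Ctrl and 511 / 524, 487 / 482, 569.8 / 534, 679 / 689, 758 / 759 and 733 / 754 CPM with Rhox10. Timp1 rose between 0 and 8 h with Rhox10, by 0.52 ± 0.073 (SE, adjusted p = 3.24e-05) on the log2 scale, and was at 0.15 ± 0.073 (SE, adjusted p = 0.271) with Ctrl. The difference between vectors went from 0.40 to 0.78 (adjusted p of the change = 0.000178).

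How many other genes passed the test depended on the 0.5 h libraries. In size, the difference between vectors was smaller at 8 h than at 0 h for 26 of 38 genes (68.4%), against 45.4% of all genes, among them Col12a1 (1.11 and 0.13), Lamc1 (0.58 and 0.04) and Col1a1 (0.54 and 0.02). None of these passed the F-test with all libraries. Without the 4 libraries of 0.5 h, 13 genes passed. Timp1, Timp2 and Tnc then had a larger difference at 8 h, and Bgn, Col1a1, Col1a2, Col3a1, Lamc1, Lox, Nid1, Sparc, Thbs1 and Vim a smaller one. Over all genes, 2.67% passed with a signed difference that was higher at 8 h than at 0 h, and 4.68% with one that was lower. These shares go by sign and not by size, since a negative difference that gets lower is larger in size. Leaving out only the first Ctrl library of 0.5 h gave 21 genes, with 19.5% of all genes called, and leaving out only the second gave 15, with 7.01%. No filter on low counts gave 6, with 2.66%.

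Between 0 and 8 h, 4 of the 5 fibrillar collagens were called lower with the Rhox10 vector (all genes: 4.06%) and 2 of 5 with the Ctrl vector (2.68%). All 5 values were negative with the Ctrl vector too, from -0.61 to -0.06 (log2). Without the 4 libraries of 0.5 h, Col1a1, Col1a2, Col3a1 and Col5a2 were called lower with Ctrl (all genes: 6.3%) and all 5 with Rhox10 (7.73%). As a description chosen after its values were seen, Col1a1 pairs were at 621 / 550.1, 659 / 494, 537 / 507, 421 / 454, 446 / 442 and 456 / 429 CPM with the Ctrl vector at 0, 0.5, 1, 2, 4 and 8 h. They were at 836 / 861, 794 / 785, 679.9 / 639, 619 / 573, 551 / 504 and 466 / 432 CPM with the Rhox10 vector, so the vectors were apart at 0 h and met at 8 h. Of all 38 genes, 15 (39.5%) fell over the 8 h with the Rhox10 vector, against 4.06% of all genes, and 2, Timp1 and Tnc, rose, against 3.12%. These included Col12a1 at -1.22, Col1a1 and Col1a2 both at -0.92, Acta2 at -0.92, Col3a1 at -0.84, Thbs1 at -0.78 and Fbn1 at -0.68 (log2). With the Ctrl vector 6 (15.8%) fell, against 2.68%, namely Col3a1, Acta2, Loxl1, Fbn1, Col1a1 and Lox, by 0.26 to 0.56. Tnc and Col4a1 rose, by 0.81 and 0.42 (2 genes, 5.26%, against 3.84%). Without the 0.5 h libraries these counts were 22 lower and 4 higher with Rhox10 (all genes: 7.73% and 5.72%), and 13 lower and 5 higher with Ctrl (6.3% and 7.23%), so fewer calls with the Ctrl vector do not show that it changed less. Of the fall in the difference itself, the F-test above is the test.

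**Figure D3:**
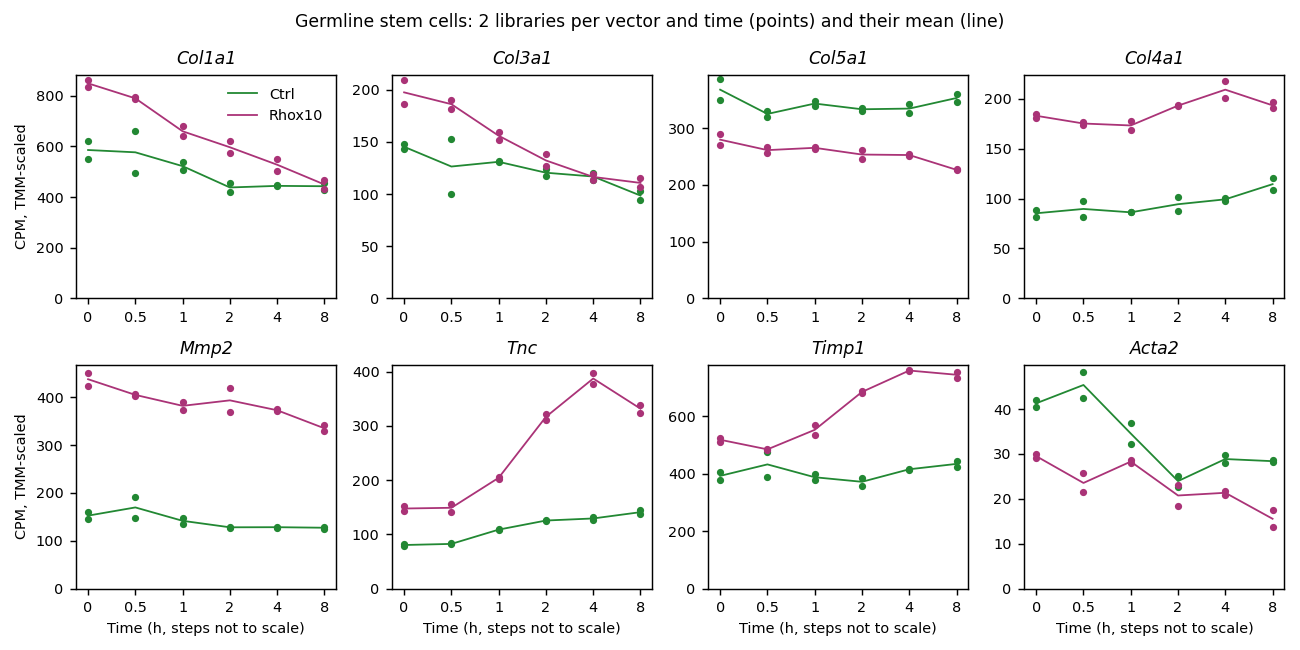
CPM of Col1a1, Col3a1, Col5a1, Col4a1, Mmp2, Tnc, Timp1 and Acta2 against time after 4-hydroxytamoxifen in hours, with a point for each library and a line through the mean of each vector. Col1a1 and Col3a1 fall under both vectors and lie close together at 8 h, Mmp2 stays apart at every time, and Tnc and Timp1 separate further.

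Put side by side, the assays compare different cells and different manipulations: absence of RHOX10 by label in sorted cells, and added RHOX10 over a knockdown in culture. They share no libraries. Of the 36 genes tested in both, 22 were higher in labelled-null RNA-seq libraries and also higher with the Rhox10 vector (61.1%, against 6.18% of the 12562 genes tested in both). Sparc was lower in the first and higher in the second. Col5a1 and Acta2 were higher in the first and lower in the second. Col1a2, Col6a2 and Eln were called only in RNA-seq, all higher, and Fbln1 only there, lower. Col18a1, Fbln2, Loxl2, Nid1, Timp1 and Vim were called only in iSLAM-seq, all higher, and Postn in neither. A call in one assay alone was not tested as a difference between the assays.

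**Figure D4:**
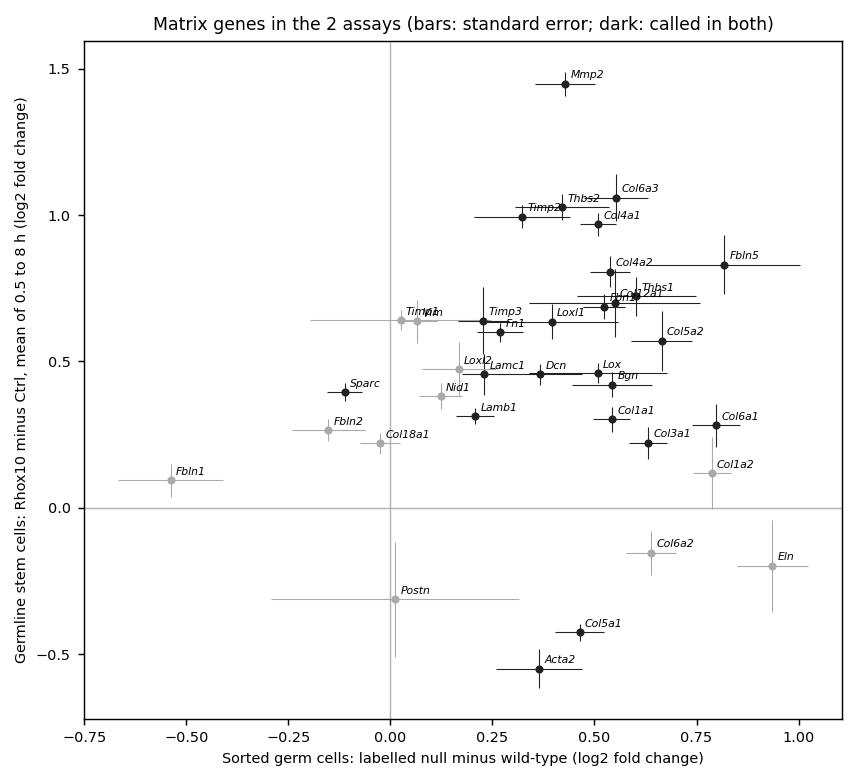
Log2 fold change of the 36 matrix genes tested in both assays, RNA-seq (labelled null minus wild-type) on the x axis and iSLAM-seq (Rhox10 minus Ctrl, averaged over 0.5 to 8 h) on the y axis, with bars of 1 SE. Dark points were called in both assays, and 22 of them lie at positive values on both axes.

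Markers of other cell types in the GS cultures were uneven. For the counts that follow, 18.7% of all genes were higher and 18.4% lower in the average. At 0 h these shares were 6.56% and 4.32%. Fibroblast markers were higher with the Rhox10 vector in 12 of 13 tested genes in the average and 9 of 13 at 0 h. Nr2f2 was at 1.37, Twist2 at 1.25, Pdgfrb at 0.99 and Prrx1 at 0.79 (log2). Their 14 genes summed to 883 to 1051 CPM in Ctrl and 1213 to 1374 CPM in Rhox10 libraries, with Tcf21 near 0. Germ cell markers were lower in 10 of 14 in the average and 6 of 14 at 0 h, with Gfra1 at -0.75, Nanos3 at -0.56, Ddx4 at -0.49 and Sall4 at -0.44 (sums of 2245 to 2889 and 2123 to 2425 CPM). Peritubular myoid and pericyte markers had 2 higher and 4 lower of 11, with Cspg4 at 1.09, Notch3 at 0.70, Mcam at -0.77, Cnn1 at -0.60, Mylk at -0.38 and Smoc2 at -0.22 (312 to 399 and 258 to 314 CPM). Sertoli cell markers had 4 higher and 1 lower of 7, with Dhh at 0.70, Aard at 0.62, Clu at 0.37, Sox9 at 0.13 and Cldn11 at -0.73 (259 to 497 and 312 to 636 CPM), while Amh was at 0 in every library. The order of these sums turned with time. They were 374 / 400 CPM with Ctrl and 621 / 636 CPM with Rhox10 at 2 h, and 497 / 475 and 312 / 340 CPM at 8 h. In the test of change 1 of 7, Sox9, passed, with a lower difference at 8 h than at 0 h (all genes: 2.39%). Endothelial markers had 0 higher and 3 lower of 6, Cdh5 at -0.98, Kdr at -0.84 and Pecam1 at -0.46 (33.2 to 50.6 and 23.0 to 35.7 CPM). Macrophage markers had 0 higher and 2 lower of 4, Mrc1 at -0.74 and Cd68 at -0.24 (24.1 to 39.4 and 18.1 to 25.1 CPM). Leydig cell markers had 0 calls of 3 (8.95 to 17.2 and 8.67 to 15.2 CPM), with Hsd3b1, Insl3 and Lhcgr at 0. The fibroblast markers thus differed at 0 h in the direction of the matrix genes, as they had between genotype labels, and their part in the matrix differences was not tested.

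**Figure D5:**
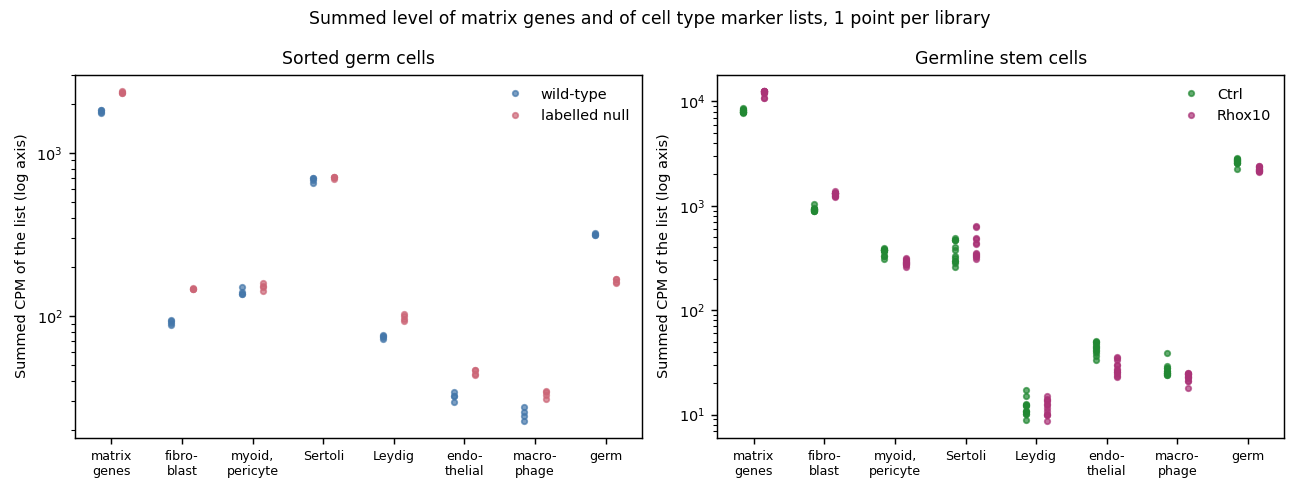
Summed CPM of the matrix genes and of each marker list in every library, on a log axis, for the 8 RNA-seq libraries and the 24 iSLAM-seq libraries. Matrix and fibroblast sums are higher in labelled-null than in wild-type libraries and higher with the Rhox10 than with the Ctrl vector, and germ cell sums are lower in the labelled-null libraries.

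The other genes of the pathway followed in part, where 18.7% of all genes were higher and 18.4% lower in the average. At 0 h these shares were 6.56% and 4.32%. Of 17 collagen biosynthesis genes, 11 were higher and 2 lower with the Rhox10 vector in the average, and 5 and 0 at 0 h. Bmp1, the procollagen C-proteinase, was at 0.64, P3h3 at 0.61, P3h4 at 0.59 and P4ha1 at 0.58, while the lower ones were P4ha2 at -0.18 and Plod1 at -0.15. Of 18 matrix receptors, 11 were higher and 3 lower, and 7 and 2 at 0 h, with the integrin subunits Itga8 at 2.17, Itga2 at 1.24, Itga5 at 0.97 and Itga1 at -0.82, and with Sdc4 at -0.20 and Dag1 at -0.16. Of 12 TGF-β pathway genes, 8 were higher and 1 lower, and 5 and 0 at 0 h. Tgfbi, a secreted target of the pathway, was at 0.78, Tgfb3 at 0.76 and the receptor Tgfbr2 at 0.67, and the one lower gene was Skil at -0.12. The averages hide a reversal of the summed level. At 2 h the 12 genes summed to 800 / 834 CPM with Ctrl and 1333 / 1299 CPM with Rhox10. At 8 h the sums were 886 / 833 and 697 / 670 CPM. Among genes passing the test of change, the difference was higher at 8 h than at 0 h for 1 and lower for 4 (all genes: 2.39%). Genes beyond the largest 4 of a list, and list sums at single times, were picked after their values were seen.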

How the data were processed

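Expression was measured by RNA-seq (8 libraries) and iSLAM-seq (24 libraries), and RHOX10 binding by CUT&Tag (9 libraries, used here through their merged peaks only). The authors deposited raw counts of reads per gene for both expression assays, per the file headers. Per the submitters' processing notes, STAR 2.5.2b, Subread, featureCounts and DESeq2 were used for RNA-seq on GRCm38, limma 3.42.2 for iSLAM-seq on mm10, and Bowtie2 2.2.5, SAMtools and HOMER for CUT&Tag on mm10, which is the same assembly as GRCm38. The strand setting of the counting, the iSLAM-seq aligner and counter, and whether all reads or only those with T-to-C conversions were counted are not given in the sources used here. The deposited peak table gives each peak a score, and its other columns, such as position, distance and gene, are the authors' annotation, per the file headers. The tables held 0 further columns of other samples. Start and end of all 55536 gene identifiers matched GENCODE M21, and 55450 had a symbol.

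Counts were tested over all genes with edgeR 4.0.16 (quasi-likelihood, TMM scaling, filterByExpr, Benjamini-Hochberg adjustment) in R 4.3.3, and a gene was called at an adjusted p-value under 0.05. The RNA-seq model had genotype as its only term, and the iSLAM-seq model had a mean for each of the 12 groups, with all 24 libraries sharing the spread. The test of change was an F-test of the 5 differences of each later time from 0 h. CPM used TMM-scaled library sizes, and RPKM used the gene lengths of the table. Levels are in counts without molecular identifiers, and the number of counts, 10536 or more on the 38 genes in each library, limits the precision of the low genes. Alternatives were DESeq2 1.42.0, other scalings, no filter, a replicate block, and each replicate left out. Scripts were tested on simulated data with known changes and an assumed spread. Of 200 genes changed by 1 on the log2 scale, 163 were recovered in RNA-seq and 200 in the average. The 8 h comparison recovered 140 and the test of change 97. False calls numbered 5, 8, 9 and 3 in that order. A gene not called in the test of change was therefore not shown to be unchanged. Peaks counted as near a gene when the authors placed them within 3 kb of its start. Python 3.11.15 with pandas 2.3.3, SciPy 1.17.1 and matplotlib 3.10.9 was used for tables and figures.

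The genes, the lists and the tests were chosen with earlier results of these data known. Values in every library, or their range, are given for the 14 genes with the smallest p in each assay among those called with a mean of at least 5 CPM in either group. From each other list up to 4 called genes with the largest difference are named, apart from an item that is not reported here. The 8 h to 0 h comparisons within a vector were added after seeing the data. Replicate numbers recur across groups but did not pair the libraries, so no block was used.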

Additional observations from a re-analysis of the deposited data

Results flagged for a closer look

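In 4 cases a single RNA-seq library stood far from the other 3 of its group, by the ratio of its gap to the group's range, judged by Dixon's 95% critical value. Col4a2, a collagen IV chain, was at 97.3 CPM in wild-type replicate 1 and at 111 to 112 CPM in the others (ratio 0.98). The same gene was at 149 CPM in labelled-null replicate 3 and at 159 to 159.7 CPM in the others (0.909). Dcn, decorin, was at 13.99 CPM in wild-type replicate 1 and at 11.7 to 12.04 CPM in the others (0.838). Eln, elastin, was at 25.6 CPM in labelled-null replicate 1 and at 23.9 to 23.97 CPM in the others (0.964). Chance gives such a value in about 1 of 20 groups, and 76 groups of 4 were examined, for which 3.8 are expected by chance alone.

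For 2 genes the difference between the Rhox10 and Ctrl vectors itself changed after 0 h by edgeR's F-test. For Timp1, a metalloproteinase inhibitor, it went from 0.40 at 0 h to 0.78 at 8 h on the log2 scale (adjusted p = 0.000178). For Tnc, tenascin C, it went from 0.88 to 1.24 (adjusted p = 9.95e-05).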

How the results depend on the processing

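The number of matrix genes called in RNA-seq was 29, and 26 with DESeq2, 26 with no filter, 32 with library totals, 36 with scaling to germ cell genes and 26 to 28 with a replicate left out. Over all genes the calls numbered 5071, and in the same order 3391, 4871, 7858, 12544 and 4468 to 4687. Sparc turned to 0.24 with library totals and 0.84 with scaling to germ cell genes, where Fbln1 turned to 0.41, and the median over all genes was 0.35 and 0.95 in these scalings. Across the alternatives, 398 values of the 29 called genes kept direction and call and 34 lost the call in the same direction, at Col12a1, Lox, Loxl1, Sparc, Timp2 and Fbln1. In iSLAM-seq all 864 values of the 32 genes called in the average kept direction and call. Leaving out a replicate gave 20 to 22 genes at 0 h (26 with all libraries), 32 to 35 in the average (32), 15 at 8 h (18), 2 to 21 in the test of change (2), 3 to 5 for Ctrl at 8 h against 0 h (8) and 10 to 12 for Rhox10 (17). Where this left 1 library in a group, that library was assumed to vary like the other groups. The 2 and the 21 of the test of change, and its 15, 13 and 6 genes without the second Ctrl library of 0.5 h, without the 4 libraries of 0.5 h and with no filter, show that this count depends on the 0.5 h libraries and the filter, and the cause was not tested. Without the libraries of 0.5 h Ctrl had 18 and Rhox10 26 genes at 8 h against 0 h. Asking in addition for a log2 difference of 1 or more in size left 0 genes in RNA-seq, 4 at 0 h, 4 in the average, 5 at 8 h, 0 for Ctrl and 2 for Rhox10 over 8 h. These counts are given without the share of all genes. Unadjusted, 30 matrix genes had p under 0.05 in RNA-seq, 28 at 0 h, 33 in the average, 23 at 8 h and 11 in the test of change. Over all genes, 6270 of 13538 did so in RNA-seq, and 4844, 9161, 5855 and 2465 of 20642 in the iSLAM-seq tests in that order.

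A replicate block gave 29 genes in RNA-seq, 26 at 0 h, 32 in the average, 18 at 8 h, 2 in the test of change, 9 for Ctrl and 17 for Rhox10 over 8 h. Deviations of same-numbered libraries correlated at -0.00016 on average in RNA-seq (4 pairs, -0.019 to 0.022) and at 0.010 in iSLAM-seq (132 pairs, -0.11 to 0.092), so the numbers did not pair the libraries. Depth limits the low genes: Lum and Tnc were not tested in RNA-seq. The assays do not separate cell number from RNA per cell.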
